A study of Mus musculus with 3 samples.

Results

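Skeletal muscle genes were examined in RNA of mouse skeletal mesenchyme taken at E15.5, late in gestation, which the series describes as calvarial. The set held 49 genes chosen by name: contractile proteins of the sarcomere, the calcium and membrane proteins that couple excitation to contraction, and the myogenic regulators. All 49 were found under their listed symbols among 43280 symbols. The libraries came from 3 genotypes at Ctnnb1, the gene of beta-catenin, with 1 library each. The dTF-cKO library was beta-catenin fx/dm with Dermo1-Cre. The cKO library was beta-catenin fx/fx with the same Cre. The control was fx/fx without Cre, so each genotype carried at least 1 floxed allele. Dermo1 is an older name of Twist2, and this Cre recombines floxed alleles in mesenchyme. The meaning of dm is not spelled out in the labels; a known Ctnnb1 allele so named encodes beta-catenin able to serve in adhesion but not in transcription. No fx/dm library without Cre was analysed here, the labels call the material primary cells, and they do not say how many embryos entered a library. With 1 library per genotype no test of genotype was possible, and each comparison is between libraries.

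Skeletal muscle of the head and trunk arises from progenitors that express Pax3 or Pax7. These cells switch on the basic helix-loop-helix factors Myf5 and Myod1, leave the cell cycle, switch on Myog and fuse into fibres, which then assemble sarcomeres. Embryonic and fetal fibres use their own isoforms of myosin, actin, troponin and the acetylcholine receptor before the adult ones replace them. Muscles attach to the outer side of the developing skull, so a piece of calvarial tissue can hold muscle beside bone and skin.

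The promoters of 3 members are shown because the results turn on them: Acta1 and Actc1, the skeletal and cardiac alpha actins, whose order differed between the libraries, and Tnnt2, the cardiac troponin T, which had equal counts in the dTF-cKO and the cKO. Each window is the 250 bases before the RefSeq start in GRCm38.p6, written 5′ to 3′ on the gene's strand. Capitals mark the E-box CAGCTG, a site of the myogenic helix-loop-helix factors, and the CArG box, a site of serum response factor. The windows were chr8:123894776-123895025 (minus strand), chr2:114052876-114053125 (minus strand) and chr1:135836084-135836333 (plus strand).
Acta1: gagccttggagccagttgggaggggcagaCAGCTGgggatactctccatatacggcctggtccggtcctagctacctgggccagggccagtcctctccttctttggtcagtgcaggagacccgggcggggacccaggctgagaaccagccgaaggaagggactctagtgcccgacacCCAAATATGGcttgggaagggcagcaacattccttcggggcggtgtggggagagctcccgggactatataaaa
Actc1: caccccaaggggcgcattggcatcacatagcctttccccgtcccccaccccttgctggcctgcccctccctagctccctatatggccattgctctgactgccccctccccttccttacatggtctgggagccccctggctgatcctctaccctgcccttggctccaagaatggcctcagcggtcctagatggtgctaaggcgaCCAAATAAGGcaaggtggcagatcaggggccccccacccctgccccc
Tnnt2: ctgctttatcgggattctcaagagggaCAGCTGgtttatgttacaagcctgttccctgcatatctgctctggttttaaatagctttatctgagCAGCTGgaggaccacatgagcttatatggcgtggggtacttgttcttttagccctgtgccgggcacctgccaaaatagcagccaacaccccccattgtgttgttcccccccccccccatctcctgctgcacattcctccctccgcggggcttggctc
The Acta1 window held 1 CAGCTG and 1 CArG box, the Actc1 window 1 CArG box, and the Tnnt2 window, the first of 2 starts in the table, 2 CAGCTG. Of the 49 members, 38 had a promoter in the table, and 17 of these (44.7%) held CAGCTG on either strand, against 14.7% of 27025 genes. A CArG box stood in 5 of 38 (13.2%), against 1.62% of all genes, and a MEF2 site in 5 of 38 (13.2%), against 3.42%. CAGCTG reads the same on both strands, and a CArG box and an E-box did not overlap in the printed windows. None of the 3 motifs was found in 14 of the 38 windows, among them those of Pax7, Myf5, Myog, Myh3, Myh7 and Actn2. These are matches of letters and not sites shown to be bound.

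The libraries differed in much besides muscle. Totals were 2905264 counts for the dTF-cKO, 2678457 for the cKO and 3634819 for the control. Ctnnb1, the targeted gene, stood at 442 CPM in the dTF-cKO, 745 in the cKO and 1026 in the control, where CPM is the count scaled to library size with TMM factors; counts span the whole gene and do not separate its alleles. Xist, the transcript of the inactive X chromosome of female cells, had 2, 0 and 1233 counts in the dTF-cKO, cKO and control, so sex and genotype cannot be told apart in comparisons with the control. The 10 osteoblast markers, among them Col1a1 and Col1a2, the chains of bone collagen, summed to 23225 counts in the dTF-cKO, 111225 in the cKO and 663403 in the control. The 10 epidermis markers, led by Krt5 and Krt10, summed to 28721, 60918 and 420 counts in the same order. The osteoblast sum thus ran in the same order as the muscle genes, while the epidermis sum was higher in both Cre-carrying libraries; the part of either in the muscle results was not tested.

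The muscle genes were lowest in the dTF-cKO, low in the cKO and highest in the control. Together the 49 genes held 183 counts in the dTF-cKO, which was 0.00630% of the library (exact 95% interval 0.00542% to 0.00728%). They held 1497 counts in the cKO (0.0559%, 0.0531% to 0.0588%) and 10697 counts in the control (0.294%, 0.289% to 0.300%). Scaled to effective library size, the summed level was 5.65-fold lower in the cKO than in control tissue (5.35 to 5.97). The dTF-cKO level was 45.8-fold lower than that of the control (39.5 to 53.3) and 8.10-fold lower than that of the cKO (6.94 to 9.49). With the libraries scaled instead to 38 genes of vessels, mural cells and fibroblasts (stroma genes), these 2 folds were 22.4 and 3.08. The fold intervals above and all further intervals are exact conditional intervals and cover counting error only. Without molecular identifiers, reads need not be separate molecules. In bulk tissue, fewer muscle cells and less RNA per muscle cell cannot be told apart.

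Gene by gene, 48 of the 49 had their highest CPM in the control, and 45 of the 49 ran in the order dTF-cKO, cKO, control from low to high. Of the 22603 genes with a count in any library, 34.9% were highest in the control and 19.0% ran in that order. In the cKO against the control, 46 of the 49 were lower by a factor of 2 or more and 0 higher by that much, on the log2 scale with a prior count of 2. Among the same 22603 genes, 10.1% were lower and 9.51% higher by that rule. The median log2 difference was -2.20 over the 49 genes, or -2.34 over 48 genes with those at 0 set to their bound, against 0.06 over the 12127 genes with a mean of at least 5 CPM. Of the 49, 34 reached that floor, 9 of them through the control alone, and 33 of the 34 were at least 2-fold lower in the cKO, where 6.78% of all genes over the floor were lower and 9.66% higher. The counting interval lay wholly below 1 for 45 of the 49. The 4 others were Myf5, Myh2, Mybpc2 and Ckmt2, with at most 17 counts in any library. The share of all genes with such an interval was not computed, so the 45 are a description only.

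In the dTF-cKO against the control, 47 of the 49 were at least 2-fold lower and 0 higher, where 20.4% and 15.0% of the 22603 genes were. Over the floor, 33 of 34 were lower and 0 higher, where 20.9% and 19.5% of all genes were. That count is a description only: 2 of the 34 reached the floor in all 3 libraries and 9 passed through the control alone, so a lower level in the dTF-cKO was partly fixed by the floor. The median was -4.31, or -4.43 over 48 genes with bounds, against 0.06 over all genes at the floor. In the dTF-cKO, 17 members had 0 counts, 18 had 1 to 3 and 14 had more than 3. In the dTF-cKO against the cKO, 41 of the 49 were at least 2-fold lower and 1, Mybpc2 with 2 counts against 0, was higher, where 20.1% and 13.6% of the 22603 genes were. Over the floor, 31 of 34 were lower and 0 higher, where 20.5% and 14.5% of all genes were. That median was -1.66, or -2.79 over the 40 genes with more than 3 counts in either library. The interval lay below 1 for 26 of the 49, again without a share over all genes. With the stroma scaling, under which the median log2 difference of all genes over the floor was 1.41, 22 of the 49 had lower levels in the dTF-cKO and 5 had higher ones, by that rule. The 5 were Tnnt2, Mybpc2, Casq1, Myf6 and Ckmt2. Myf6 and Ckmt2 had 0 counts in both the dTF-cKO and the cKO, so the shift of the scaling alone placed them there. Of all genes over the floor, 6.28% were lower and 64.1% higher under that scaling. With a prior count of 10 in place of 2, 23 of the 49 were lower and 0 higher. Of all genes over the floor, 17.3% were lower and 12.4% higher with that prior count.

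**Figure D1:**
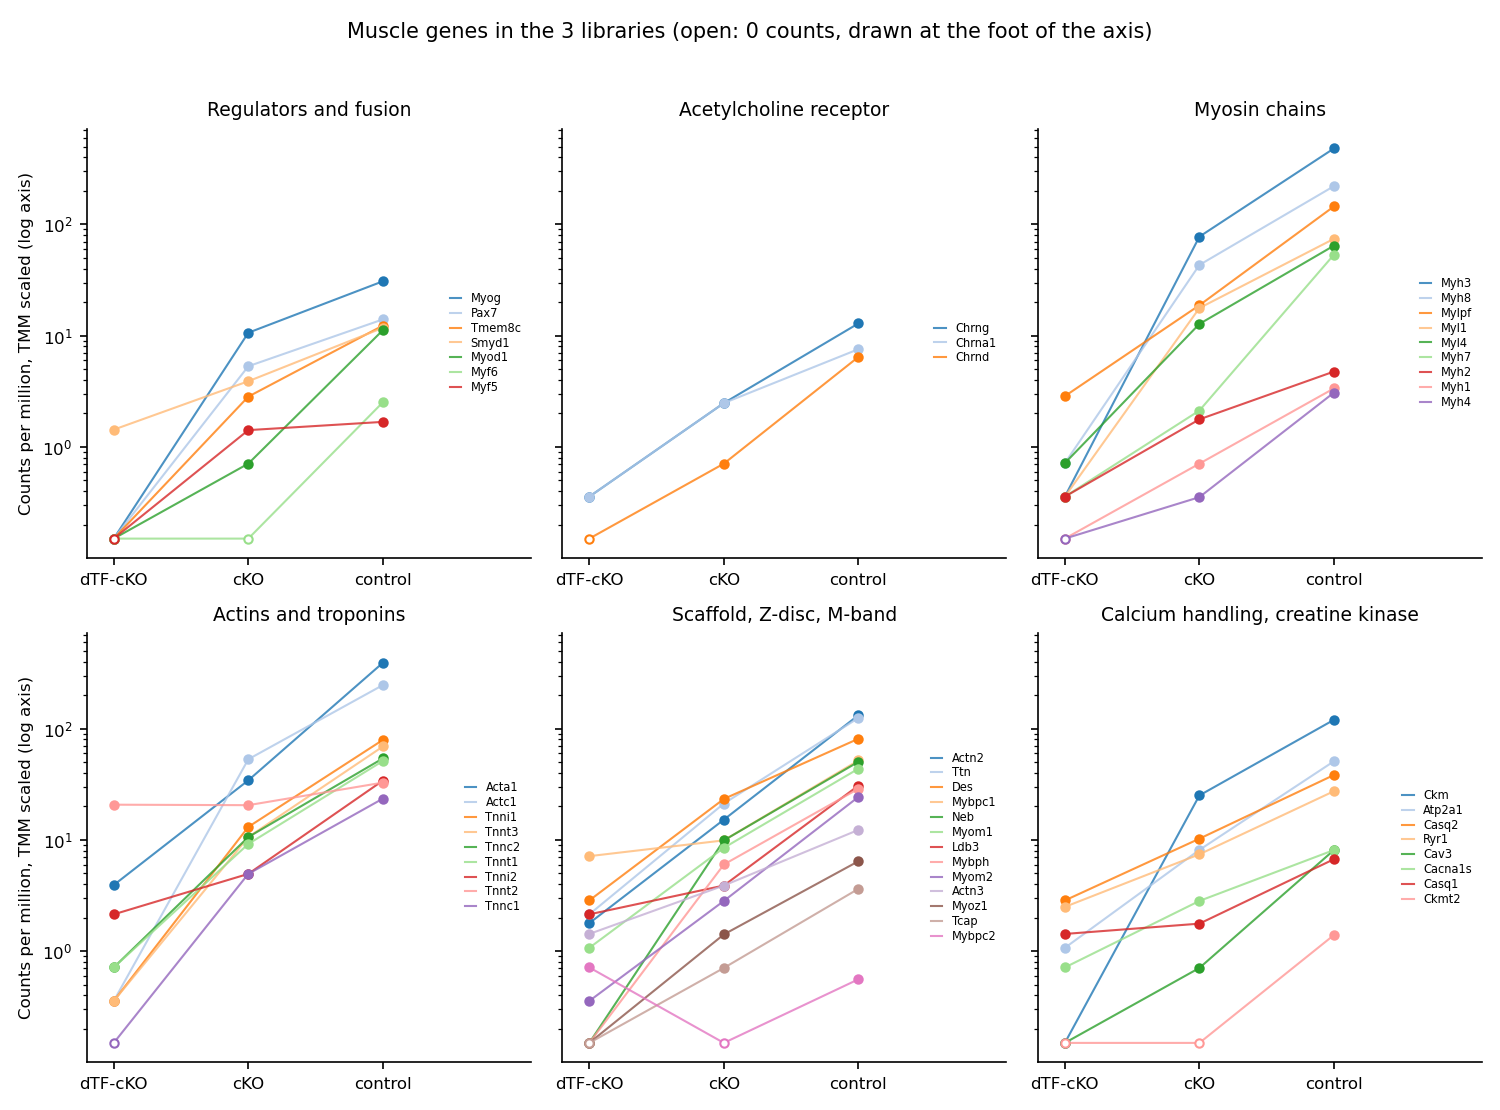
CPM of each muscle gene (log axis) in the dTF-cKO, cKO and control libraries, 1 line per gene, in 6 panels by role; open circles have 0 counts and stand at the foot of the axis. Nearly all lines climb from dTF-cKO to cKO to control, while Tnnt2 is level between the dTF-cKO and the cKO with 58 counts in each.

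Pax7, the paired-box factor of muscle progenitors and satellite cells, had 0 counts in the dTF-cKO, 15 in the cKO and 50 in the control. It was 2.64-fold below the control in the cKO (1.46 to 5.05) and at least 13.0-fold lower in the dTF-cKO, against the limit of 3 counts that a count of 0 allows (1.07 CPM there). Myf5, which marks committed myoblasts, had 0, 4 and 6 counts in the dTF-cKO, cKO and control, too few to show a difference between the cKO and the control (ratio 1.19-fold lower, 0.281 to 5.71). Both progenitor factors were present in the cKO and at 0 in the dTF-cKO.

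Myod1, the factor that commits cells to the muscle fate, had 0 counts in the dTF-cKO, 2 in the cKO and 40 in the control, and was 15.8-fold lower in the cKO (4.10 to 135). Myog, which switches on the differentiation programme, had 0, 30 and 110 counts in the same order and was 2.90-fold lower in the cKO (1.92 to 4.50) and at least 28.7-fold lower in the dTF-cKO. Myf6, a late factor of fibres, had 0, 0 and 9 counts. In the cKO, Myod1 was down to 2 counts while Myog had 30, although the intervals of their folds overlap. Pax7 stood at 15 counts for 2 of Myod1 in the cKO, against 50 for 40 in the control, a ratio 6-fold higher (1.26 to 56.4), whereas the ratio of Pax7 to Myog was 1.10-fold the control's (0.503 to 2.33).

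Tmem8c, the older symbol of myomaker, the membrane protein that fuses myoblasts, had 0, 8 and 44 counts in the dTF-cKO, cKO and control and was 4.35-fold lower in the cKO (2.03 to 10.7). Smyd1, a methyltransferase that helps fold and place myosin, had 4, 11 and 42 counts and was 3.02-fold lower in the cKO (1.53 to 6.502) and 8.22-fold lower in the dTF-cKO (2.98 to 31.6). The acetylcholine receptor subunits Chrna1, Chrng and Chrnd, of which Chrng is the fetal one, summed to 2 counts in the dTF-cKO, 16 in the cKO and 96 in the control. Their sum was 4.74-fold lower in the cKO (2.78 to 8.63).

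The 31 sarcomere genes summed to 153 counts in the dTF-cKO, 1252 in the cKO and 9367 in the control. The sum was 5.92-fold lower in the cKO (5.58 to 6.28) and 47.9-fold lower in the dTF-cKO (40.9 to 56.6) than in the control. Of the 25 that reached the floor, 20 were between 4-fold and 9-fold lower in the cKO, and the range over the 25 was 1.60-fold to 25.2-fold lower. Pax7 and Myf5 stood against this with 19 summed counts in the cKO and 56 in the control. Their ratio to the sarcomere sum was 1.52 counts per 100 in the cKO and 0.598 per 100 in the control, 2.54-fold higher in the cKO (1.42 to 4.35). This ratio is taken within a library, so library scaling cancels. It rests mainly on the 15 counts of Pax7: with Myod1 added to the progenitor factors it was 1.64-fold higher, with an interval that spans 1 (0.965 to 2.66). The ratio of Myod1, Myog and Myf6 to the sarcomere sum was 1.51-fold higher in the cKO (0.992 to 2.22). In the dTF-cKO the contrast could not be measured: both progenitor factors were at 0, and a ratio to the 153 sarcomere counts of up to 4.22 times the control's lies within counting error.

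Among the myosin heavy chains, Myh3, the embryonic form, had 1 count in the dTF-cKO, 219 in the cKO and 1719 in the control. It was 6.21-fold lower in the cKO (5.39 to 7.18) and 1346-fold lower in the dTF-cKO (241 to 53185). Myh8, the perinatal form, had 2, 122 and 788 counts and was 5.11-fold lower in the cKO (4.22 to 6.23). Both lie, with the adult fast forms Myh1, Myh2 and Myh4, in a cluster on chromosome 11 of mm10, between 67078300 and 67308634. The 3 adult fast forms had at most 1 count in the dTF-cKO, 1 to 5 in the cKO and 11 to 17 in the control. Because the cluster's genes are close in sequence, reads may have been split between them.

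Myh7, the slow and cardiac beta form on chromosome 14, departed from the others. It had 1 count in the dTF-cKO, 6 in the cKO and 191 in the control, and was 25.2-fold lower in the cKO (11.4 to 69.5). Its ratio to Myh3 was 2.74 per 100 in the cKO and 11.1 per 100 in the control, 4.06-fold lower (1.80 to 11.3). For the slow and fast troponins in the cKO the ratio intervals span 1. The ratio of Tnni1 to Tnni2, the slow and fast troponin I, was 1.14 times the control's in the cKO (0.576 to 2.37), that of Tnnt1 to Tnnt3 1.17 times (0.640 to 2.12), and that of Tnnc1 to Tnnc2 1.07 times (0.498 to 2.21). These intervals allow differences of about 2-fold either way. In the dTF-cKO there was 1 count of Tnni1 to 6 of Tnni2, a ratio 0.0718 times the control's (0.00156 to 0.606). Such ratios of paralogues were chosen after the values were seen.

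The myosin light chains followed the main pattern. Mylpf, the fast regulatory chain, had 8, 53 and 518 counts in the dTF-cKO, cKO and control and was 7.73-fold lower in the cKO (5.82 to 10.5). Myl1, the fast essential chain, had 1, 50 and 265 counts and was 4.19-fold lower (3.09 to 5.79). Myl4, the embryonic and atrial essential chain, had 2, 36 and 230 counts and was 5.05-fold lower (3.54 to 7.39). The ratio of Myl4 to Myl1 in the cKO was 0.830 times the control's, with an interval that spans 1 (0.506 to 1.35).

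The sarcomeric actins changed order. Acta1, the skeletal actin that takes over as fibres mature, had 11 counts in the dTF-cKO, 97 in the cKO and 1396 in the control, and was 11.4-fold lower in the cKO (9.26 to 14.1). Actc1, the cardiac actin that embryonic skeletal muscle also uses, had 1, 150 and 880 counts and was 4.64-fold lower (3.90 to 5.55). Per kb of exon, Acta1 led all 49 genes in the control at 254 CPM per kb, with Actc1 at 152. In the cKO Actc1 led at 32.8 CPM per kb, with Acta1 at 22.3. There were 64.7 counts of Acta1 per 100 of Actc1 in the cKO and 159 per 100 in the control, 2.45-fold fewer (1.86 to 3.25). In the dTF-cKO the order was that of the control, with 11 counts of Acta1 and 1 of Actc1. The coding sequences of the actins are nearly identical, so some reads may be assigned to the wrong gene. Acta2, the smooth muscle actin, had 2482 counts in the dTF-cKO, 528 in the cKO and 605 in the control, and its part in the 11 counts of Acta1 in the dTF-cKO was not tested.

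Of the 7 troponins, 6 were 4.74-fold to 6.89-fold lower in the cKO and summed to 12 counts in the dTF-cKO, 151 in the cKO and 1112 in the control. Tnnt2 did not follow them. It had 58 counts in the dTF-cKO, 58 in the cKO and 117 in the control, and was 1.58-fold lower in the dTF-cKO than the control (1.14 to 2.20) and 1.60-fold lower in the cKO (1.15 to 2.22). The ratio of Tnnt2 in the dTF-cKO to that in the cKO was 1.01 (0.690 to 1.48). The log2 difference of Tnnt2 in the dTF-cKO from the control was -0.64, where the median of all genes over the floor was 0.06. Scaling to the stroma genes shifts every gene alike. Under it Tnnt2 stood at 0.39 and that median at 1.09. Its place below the median there is the same result and not a further one. Against the other 48 genes, its odds were 41.9 times the control's in the dTF-cKO (28.6 to 60.9) and 3.64 times in the cKO (2.60 to 5.06). Per kb it ranked 2 of 49 in the dTF-cKO, 19 in the cKO and 28 in the control. These ranks rest on merged exon lengths, 7752 bases for Tnnt2 and 1583 for Tnnt3. Which transcripts were expressed was not tested. Without Tnnt2, a calculation added after the values were seen, the summed level of the other 48 genes in the dTF-cKO was 66.3-fold below that of the control (55.6 to 79.7), against 45.8-fold with it.

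Markers of heart muscle stood beside this result as follows. The 10 cardiac markers summed to 11 counts in the dTF-cKO, 14 in the cKO and 40 in the control, and none reached the floor. Nppa and Hand1 were at 0 in all 3 libraries. Myl7, the atrial light chain, had 6 counts in the dTF-cKO, 9 in the cKO and 0 in the control, and Myl2, the ventricular and slow light chain, had 0, 2 and 19. Tnnt2 therefore had more counts in the dTF-cKO than all cardiac markers together, and which cells gave them was not tested.

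**Figure D2:**
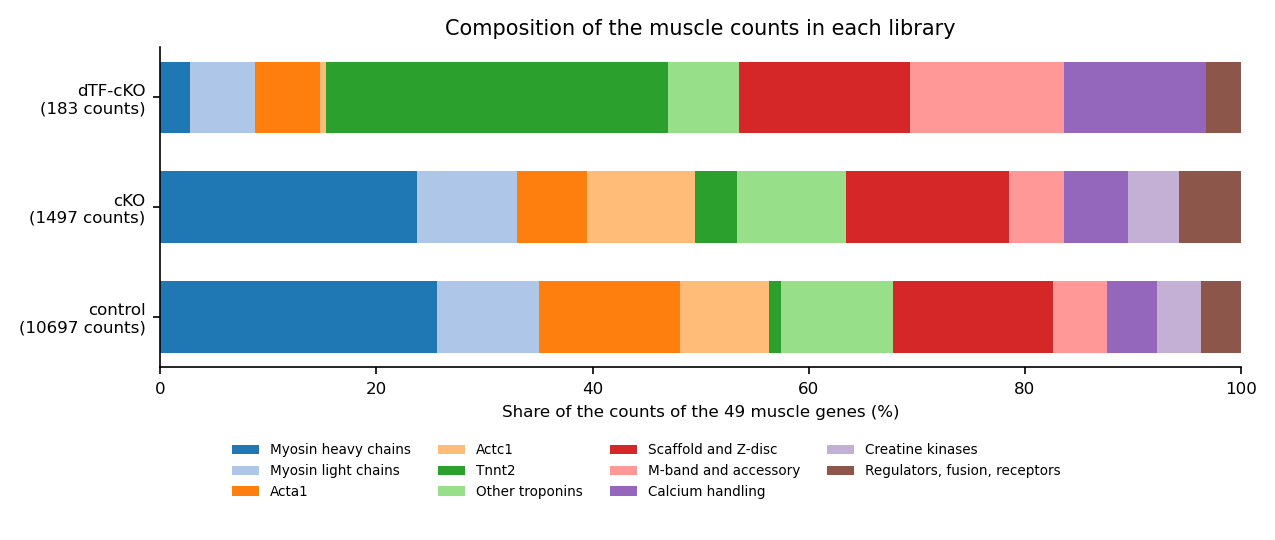
Share of the counts of the 49 muscle genes taken by each class or gene, in the dTF-cKO, cKO and control libraries from top to bottom. Myosin heavy chains take 23.7% in the cKO and 25.6% in the control. Tnnt2 takes 31.7% of the 183 counts of the dTF-cKO and the myosin heavy chains 2.73%.

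The scaffold of the sarcomere was lower in step with the filaments. Ttn, the giant spring of the sarcomere, had 6 counts in the dTF-cKO, 60 in the cKO and 446 in the control, and was 5.88-fold lower in the cKO (4.48 to 7.83). Neb, the ruler of the thin filament, had 0, 28 and 180 counts and was 5.08-fold lower (3.40 to 7.87). Actn2, the alpha-actinin of the Z-disc, had 5, 43 and 472 counts and was 8.68-fold lower (6.34 to 12.2). Des, the intermediate filament desmin, had 8, 66 and 290 counts and was 3.47-fold lower (2.65 to 4.61). Relative to the other 48 genes, Actn2 was 0.641 times its control odds in the cKO (0.455 to 0.881) and Des 1.66 times (1.24 to 2.18). Desmin is made in smooth muscle and pericytes as well as in skeletal muscle. The 10 markers of those cells, led by Acta2 and Notch3, summed to 4458 counts in the dTF-cKO, 3238 in the cKO and 3430 in the control. In the dTF-cKO that sum was carried by Acta2 and Tagln, with 2482 and 1002 counts. They had 528 and 153 counts in the cKO and 605 and 184 in the control, and did not carry the sum there. The 10 markers did not run together: in the dTF-cKO 5 were at least 2-fold lower than in control tissue and 3 higher, with a median log2 difference of -0.94. Among those lower were the pericyte markers Pdgfrb, with 41, 659 and 824 counts in the dTF-cKO, cKO and control, and Cspg4, with 13, 331 and 656. Tagln, Pdgfrb and Cspg4 were named after their values were seen, and the part of either cell type in the counts of Des was not tested. Actn3, the fast-fibre alpha-actinin, had 4, 11 and 44 counts in the dTF-cKO, cKO and control. The Z-disc proteins Ldb3, Myoz1 and Tcap had 6, 0 and 0 counts in the dTF-cKO, 11, 4 and 2 in the cKO, and 110, 23 and 13 in the control.

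Of the thick filament and M-band genes, Mybpc1, the slow myosin-binding protein C, had 20 counts in the dTF-cKO, 28 in the cKO and 185 in the control. It was 5.22-fold lower in the cKO (3.50 to 8.08) and 7.24-fold lower in the dTF-cKO (4.56 to 12.1). After Tnnt2 it had the most counts of any member in the dTF-cKO, and its odds there against the other 48 genes were 6.97 times the control's (4.05 to 11.4). Between the dTF-cKO and the cKO it was 1.39-fold lower in the dTF-cKO, with an interval that spans 1 (0.753 to 2.595), where Acta1 was 8.73-fold lower (4.67 to 18.1). Mybpc2, the fast form, had 2 counts in the dTF-cKO, 0 in the cKO and 2 in the control, so no difference was detectable. Mybph had 0, 17 and 103 counts, Myom1, the myomesin of the M-band, 3, 24 and 156, and Myom2, its partner in fast fibres, 1, 8 and 87 counts in the same order of libraries. Each of these last 3 was 4.79-fold to 8.60-fold lower in the cKO.

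The genes of excitation-contraction coupling summed to 24 counts in the dTF-cKO, 88 in the cKO and 499 in the control, 4.48-fold below the control in the cKO (3.57 to 5.69) and 16.3-fold lower in the dTF-cKO (10.8 to 25.65). Ryr1, the calcium release channel, had 7, 21 and 98 counts in the dTF-cKO, cKO and control and was 3.69-fold lower in the cKO (2.29 to 6.23). Atp2a1, the fast calcium pump, had 3, 23 and 182 counts and was 6.26-fold lower (4.04 to 10.1). Casq2, a calcium store protein of heart and slow or embryonic muscle, had 8, 29 and 137 counts and was 3.74-fold lower (2.49 to 5.79). Casq1, its fast partner, had 4, 5 and 24 counts, Cacna1s, the voltage sensor, 2, 8 and 29, and Cav3, the muscle caveolin, 0, 2 and 29. Ckm, the muscle creatine kinase, had 0, 71 and 429 counts. It was 4.78-fold lower in the cKO (3.71 to 6.23) and at least 112-fold lower in the dTF-cKO, the largest of the 17 bounds against 0 counts. Ckmt2, the mitochondrial form, had 0, 0 and 5 counts.

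Each gene was also read relative to its fellows. Setting each gene against the other 48 within a library, the interval of the odds ratio to the control excluded 1 for 9 genes in the cKO. Pax7, Myog, Actc1, Tnnt2 and Des were relatively higher, and Myh7, Mylpf, Acta1 and Actn2 relatively lower. In the dTF-cKO 15 genes stood out in spite of its 183 counts. Those relatively higher were Smyd1, Tnnt2, Tnni2, Actn3, Ldb3, Mybpc1, Mybpc2, Ryr1, Casq1 and Casq2, and those relatively lower Myh3, Myh8, Acta1, Actc1 and Ckm. Of these, Mybpc2 rests on 2 counts. Myosin heavy chains took 2.73% of the muscle counts in the dTF-cKO, 23.7% in the cKO and 25.6% in the control. Tnnt2, in contrast, took 31.7%, 3.87% and 1.09%. These shares depend on each other, since 1 gene's larger share leaves less for the rest.

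**Figure D3:**
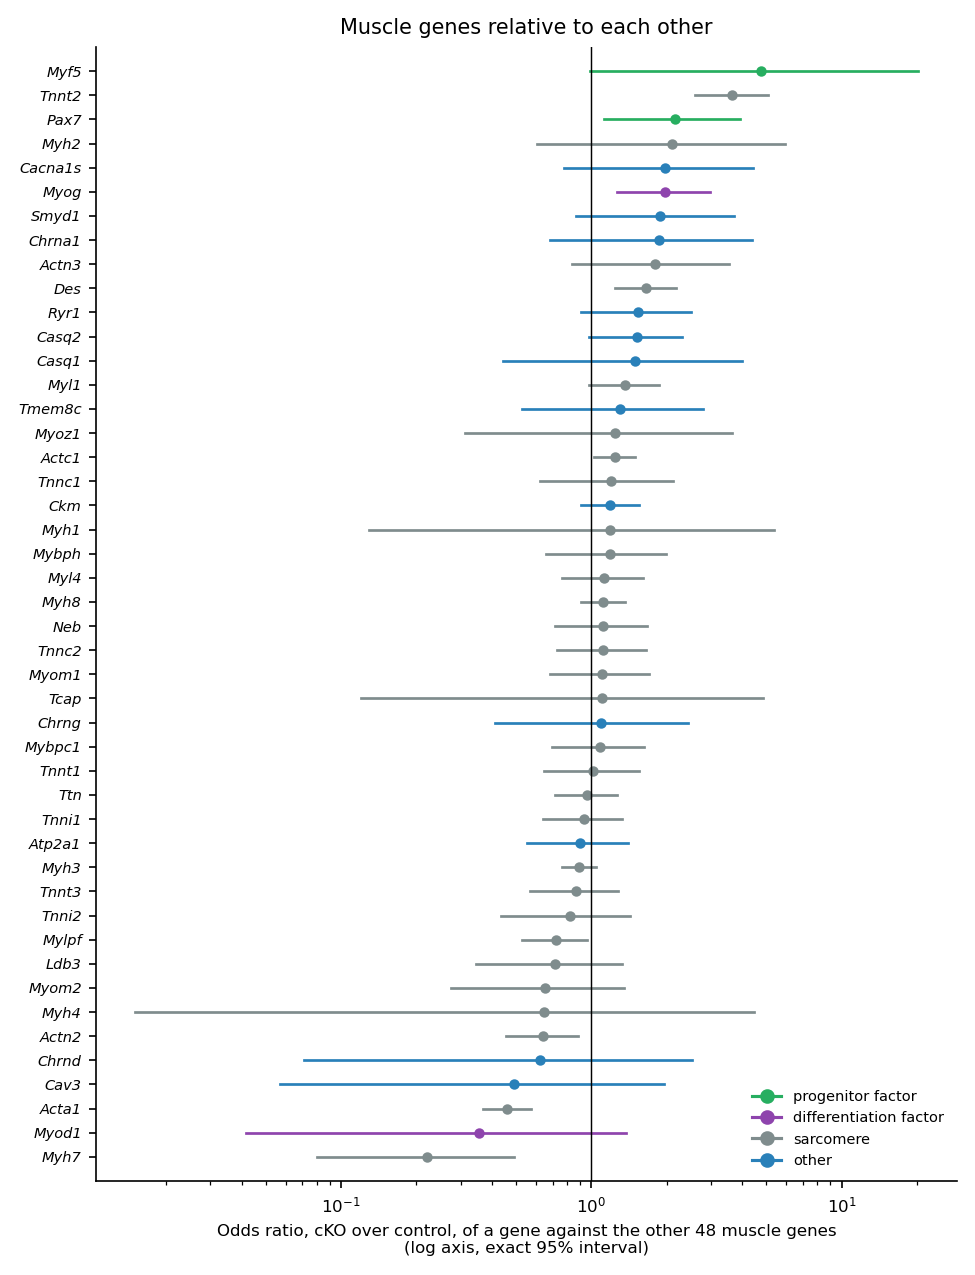
Odds of each gene against the other 48 muscle genes in the cKO over those in the control (log axis), with exact 95% counting intervals, for the 46 genes with counts in the cKO. Pax7, Myog and Tnnt2 lie to the right of 1, and Acta1 and Myh7 to the left.

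Other genes of muscle were read from 4 further lists. Of 19 genes upstream of the myogenic factors or used by progenitors, 14 reached the floor, and in the cKO 2 of these were at least 2-fold lower and 1 higher, with a median log2 difference of -0.27 over the 19. In the dTF-cKO 8 were lower and 2 higher (median -2.92). Over all genes at the floor, 20.9% were lower and 19.5% higher in the dTF-cKO, and 6.78% and 9.66% in the cKO, so the counts of higher genes here are near that background. Mef2c, a co-factor of the myogenic factors, had 31 counts in the dTF-cKO, 152 in the cKO and 514 in the control, and was 2.67-fold lower in the cKO (2.23 to 3.23). Its relatives Mef2a, with 267, 350 and 331 counts, and Mef2d, with 366, 278 and 425, are expressed in many cell types and differed by less than 2-fold. Those higher were Dll1, a Notch ligand, with 57, 81 and 23 counts, and Met, the receptor of hepatocyte growth factor, with 197, 56 and 50. Both are also expressed in epithelia, whose markers were higher in the same libraries, and the part of those cells was not tested.

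Of 14 genes of fusion, membrane and synapse, 6 reached the floor, of which 0 were 2-fold lower or higher in the cKO, while 4 were lower and 1, Chrnb1, higher in the dTF-cKO. The medians over the 14 were -2.10 in the dTF-cKO and -0.62 in the cKO. Cdh4, a cadherin of muscle and nerve, had 8, 80 and 73 counts in the dTF-cKO, cKO and control, Ncam1, an adhesion molecule of myoblasts and neurons, 188, 255 and 529, and Dysf, the membrane repair protein dysferlin, 10, 59 and 109. Of 22 further sarcomere genes, 9 reached the floor, and 6 were lower in the dTF-cKO and 6 in the cKO, with medians over the 22 of -2.33 in the dTF-cKO and -1.38 in the cKO. Synpo2l, a Z-disc protein, had 0, 13 and 101 counts. Tpm1 and Tpm2, tropomyosins that smooth muscle and fibroblasts also make, had 1335 and 571 counts in the dTF-cKO and 1255 and 345 in the cKO, against 2191 and 1006 in the control. Of 18 genes of calcium handling and metabolism, 9 reached the floor, and 7 were lower in the dTF-cKO and 5 in the cKO (medians -2.31 and -1.48). Hrc, a calcium-binding protein of the sarcoplasmic reticulum, had 4, 45 and 393 counts, Srl, sarcalumenin of the same membranes, 6, 46 and 198, and Eno3, the muscle enolase, 10, 48 and 211. In the cKO the medians of the 4 lists ran from -0.27 for progenitor genes to -1.48 for calcium handling and metabolism, against -2.20 for the 49 genes.

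**Figure D4:**
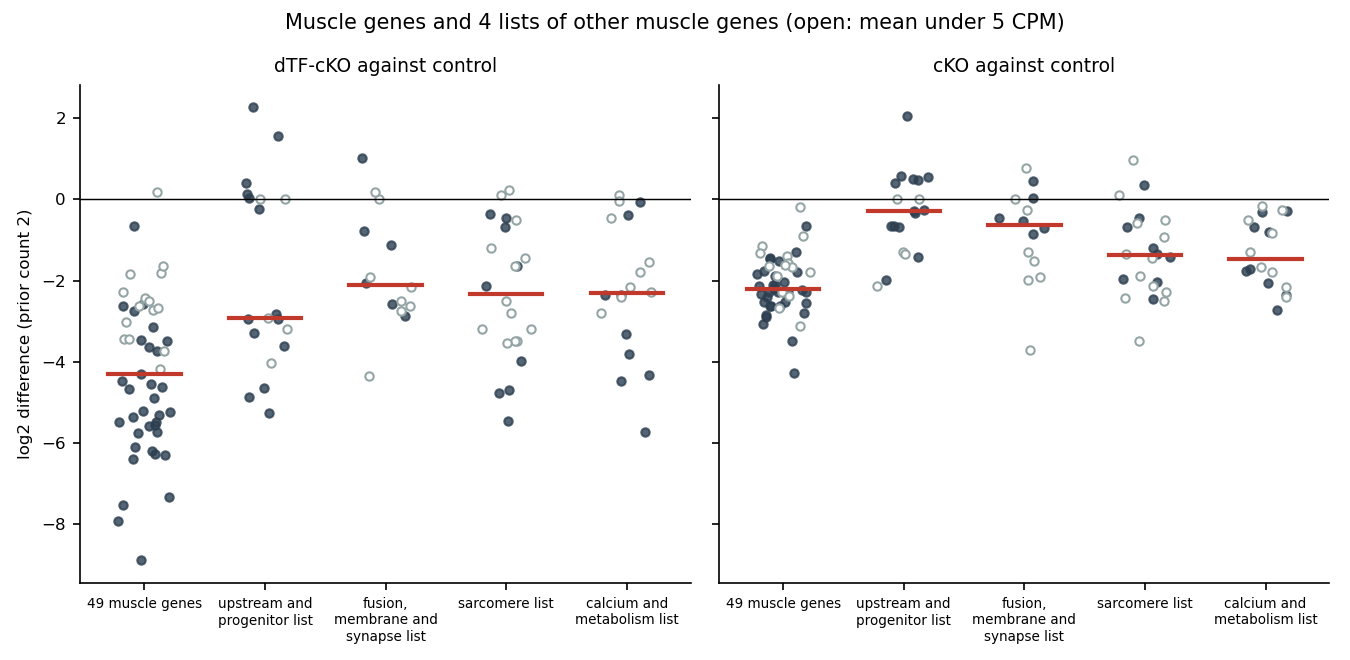
Log2 difference from the control (prior count 2) of the 49 muscle genes and of 4 lists of other muscle genes, in the dTF-cKO (left) and the cKO (right); red bars are medians and open circles have a mean under 5 CPM. In the cKO the upstream and progenitor list lies nearest to 0, with a median of -0.27, and the 49 genes lowest, with a median of -2.20.

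Lists of tissues found near muscle were read in the same libraries. The 6 tendon markers, led by Fmod and Tnmd, summed to 395 counts in the dTF-cKO, 753 in the cKO and 1658 in the control, 1.74-fold lower in the cKO (1.60 to 1.90). The 10 nerve markers summed to 462, 466 and 793 counts in the dTF-cKO, cKO and control, but did not run together: Erbb3 had 324, 233 and 72 counts and Fabp7 had 2, 12 and 248. Without Erbb3, left out after its values were seen, the sum was 4.09-fold lower in the dTF-cKO (3.40 to 4.94) and 2.45-fold lower in the cKO (2.11 to 2.85). The 6 brown fat markers, a tissue that shares an origin with muscle, summed to 5, 133 and 216 counts, carried by Ebf2 and Prdm16, with Ucp1 at 0 throughout. The tendon sum was lower by a smaller factor than the muscle sum in both Cre-carrying libraries, and the brown fat sum in the cKO. The sum of the 10 osteoblast markers was 4.72-fold lower in the cKO than in the control, against 5.65-fold for the muscle sum. In the dTF-cKO these folds were 22.4 and 45.8.

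Exons of 18 members overlap another annotated gene on the opposite strand, and the strand setting of the counting is not given in the sources used here, so their counts are less certain. The overlap covers 74.0% of the exons of Tnnc2, with Ube2c, a cell-cycle enzyme that had 312 counts in the dTF-cKO, 183 in the cKO and 210 in the control, and 49.9% of those of Mybph, with Adora1 (5, 3 and 8 counts). It covers 21.9% of Atp2a1, with Rabep2 (33, 86 and 83 counts).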

How the data were processed

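RNA was extracted with a Qiagen RNeasy kit and libraries made with an Ion Total RNA-Seq kit, per the labels' protocols; the molecule is given as polyA RNA. The authors deposited raw read counts per gene symbol for 1 library of each genotype, and the submitters' processing notes name mm10. For the aligner, the counter, the annotation and strandedness, the entry is: not given in the sources used here. Counts were scaled with TMM factors (edgeR 4.0.16, R 4.3.3), and log2 values used a prior count of 2. Ratios carry exact conditional 95% intervals (SciPy 1.17.1), and odds ratios within a library exact conditional ones. The intervals of the ratios were tested on simulated data. A count of 0 was set to 3 counts for bounds. Levels between genes use merged exon lengths of GENCODE vM21 on GRCm38, the assembly of mm10. Alternative scalings were library totals, DESeq2 1.42.0 size factors, totals after removal of the top 20 genes per library, and the median of 38 stroma genes (endothelial, mural and fibroblast markers) set to no difference. Tmem8c is listed under that older symbol. Date-like symbols numbered 27 and held at most 0.180% of a library. The members and lists were chosen with earlier results of these data known. All 49 members were named, with the 3 most abundant genes of each further muscle list and any measured gene higher by 2-fold, and the 2 most abundant of each marker list and those at 0 throughout.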

Additional observations from a re-analysis of the deposited data

How the results depend on the processing

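No paired analysis was possible because each genotype had 1 library; for the same reason no replicate could be left out. In the cKO against the control, 33 of the measured muscle genes were at least 2-fold lower under 4 other scalings and both other prior counts. Over all 49 the count was 46 in the main setting. It was 47 with stroma scaling or a prior count of 0.5, and 37 with a prior count of 10. Raising the floor to 20 CPM left 18 of 19 measured genes lower for the cKO against the control, 18 of 19 for the dTF-cKO against the control, and 17 of 19 for the dTF-cKO against the cKO, since fewer genes were measured. The shares of all genes at least 2-fold lower over that floor were not computed. The median log2 difference of the dTF-cKO from the control was -2.76 with a prior count of 10 and -3.28 under the stroma scaling. For the dTF-cKO against the cKO the median was -2.65 with a prior count of 0.5, -0.89 with 10, and -0.27 under the scaling to 38 stroma genes. That scaling moved the median of all measured genes to 1.41 in the dTF-cKO against the cKO, 1.09 in the dTF-cKO against the control and -0.19 in the cKO against the control. Under it 11 genes that were at least 2-fold lower in the main setting changed sign in the dTF-cKO against the cKO. Their log2 differences were Myod1 0.34, Smyd1 0.27, Chrnd 0.34, Myh1 0.34, Myh2 0.13, Tnni2 0.39, Actn3 0.27, Tcap 0.34, Ryr1 0.039, Cacna1s 0.048, Cav3 0.34. Genes with a smaller main difference that also turned positive, such as Ldb3, Mybpc1, Casq1 and Myh4, were not counted among the 11. The scaling shifts every gene alike, which by its construction turns these signs, and the values of Myod1, Chrnd, Myh1, Tcap and Cav3, with 0 counts against 2, come from the prior count. The fold by which the summed level was lower, in scalings added after the values were seen, was 5.27 with library totals and 6.71 with stroma scaling in the cKO against the control. It was 58.7 without the top 20 genes and 22.4 with stroma scaling in the dTF-cKO against the control, and 9.95 and 3.08 in the dTF-cKO against the cKO. The difference between the median log2 values of progenitor factors and sarcomere genes in the cKO was 1.54. Under 10 alternatives it was 0.98 to 1.55, among them the ratio of sums given above (1.34 on the log2 scale). Of these alternatives, 4 were the other scalings, which nearly cancel in this difference by construction and so could not test it. The progenitor median was that of Pax7 and Myf5, at -1.30 and -0.17. Genes with few counts in the dTF-cKO are limited by depth, and without replicates no spread between embryos is known.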
